A study of Mus musculus with 8 samples.

Results

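The genes described here are 9 markers of tendon cells, Tnmd, Scx, Mkx, Tppp3, Comp, Thbs4, Cilp, Cilp2 and Chad, out of 19752 genes with a value in whole injured muscle. They were listed by name, chosen by their log2 intensities in each array and by the difference between treated and control muscles, and each had 1 probe set that the platform annotation ties to that gene alone. Since those measured values were known when the list was drawn up, the differences between those groups are given for these 9 genes as a description, with no test.

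The muscle was the tibialis anterior of male C57BL/6 mice, 99 weeks old by the sample labels and 22 months old by the series' text, injured by cryoinjury (8 s under a metal probe chilled in liquid nitrogen) and taken whole at day 8. In the rIL-33 group (4 arrays) the mice had been injected intraperitoneally with rIL-33, a recombinant form of the alarmin cytokine IL-33, 2 µg each on the day before and the day after the injury. The PBS group (4 arrays) carries the treatment label PBS and shares the injury, age, sex and day of harvest. Each group holds 2 arrays whose genetic background label is WT and 2 whose label is C57BL/6, and the difference that these labels stand for is not explained in them. No label states whether the arrays of a group stem from separate mice, so every p-value given for other genes measures the spread between these samples, which may be technical.

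Tendon cells, or tenocytes, lay down the parallel collagen fibrils that carry force from muscle to bone. Scleraxis (Scx) and Mohawk (Mkx) are the transcription factors of their lineage, and tenomodulin (Tnmd) is a membrane protein that is the usual marker of mature tenocytes. A tibialis anterior dissected whole can carry its own tendon, aponeurosis and connective tissue sheaths, so RNA of such cells can be part of the sample. How much tendon came with each muscle was not measured. Comp, Chad, Cilp and Cilp2 are expressed in cartilage as well, and Thbs4 is also made at the junction of muscle and tendon.

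Values below are log2 intensities made with RMA (robust multi-array average: background correction, equalised array distributions, 1 value per probe set), and 1 unit is a doubling of intensity. Median, summed and smallest intensities are on the linear scale. Median intensity was between 222.6 and 232.2 on the 8 arrays. Of the 19752 genes, the 4938 with a mean log2 intensity under the 25th percentile, 6.65, were left out as dim, and 14814 were tested. All 9 tendon cell genes lay above that cut-off in every array, the lowest single value being the 7.48 of Cilp2 in PBS replicate 1. That cut-off is a share of all genes and not a measure of background. Cilp2 would fall out with a cut-off at the 50th percentile. In whole muscle, fewer cells of a type and less RNA per cell cannot be told apart.

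Mean levels with rIL-33 were lower than with PBS for 8 of the 9 genes and higher for 1, Chad. The median of the 9 log2 differences, rIL-33 minus PBS, was -0.19, beside -0.0055 over all genes tested, of which 52.0% were lower. Tnmd and Tppp3 differed most, and they were the 2 members whose groups did not overlap. Over all genes tested, groups without overlap and lower with rIL-33 made up 2.13%. Because the list was made with this contrast in view, these counts are descriptions.

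**Figure D1:**
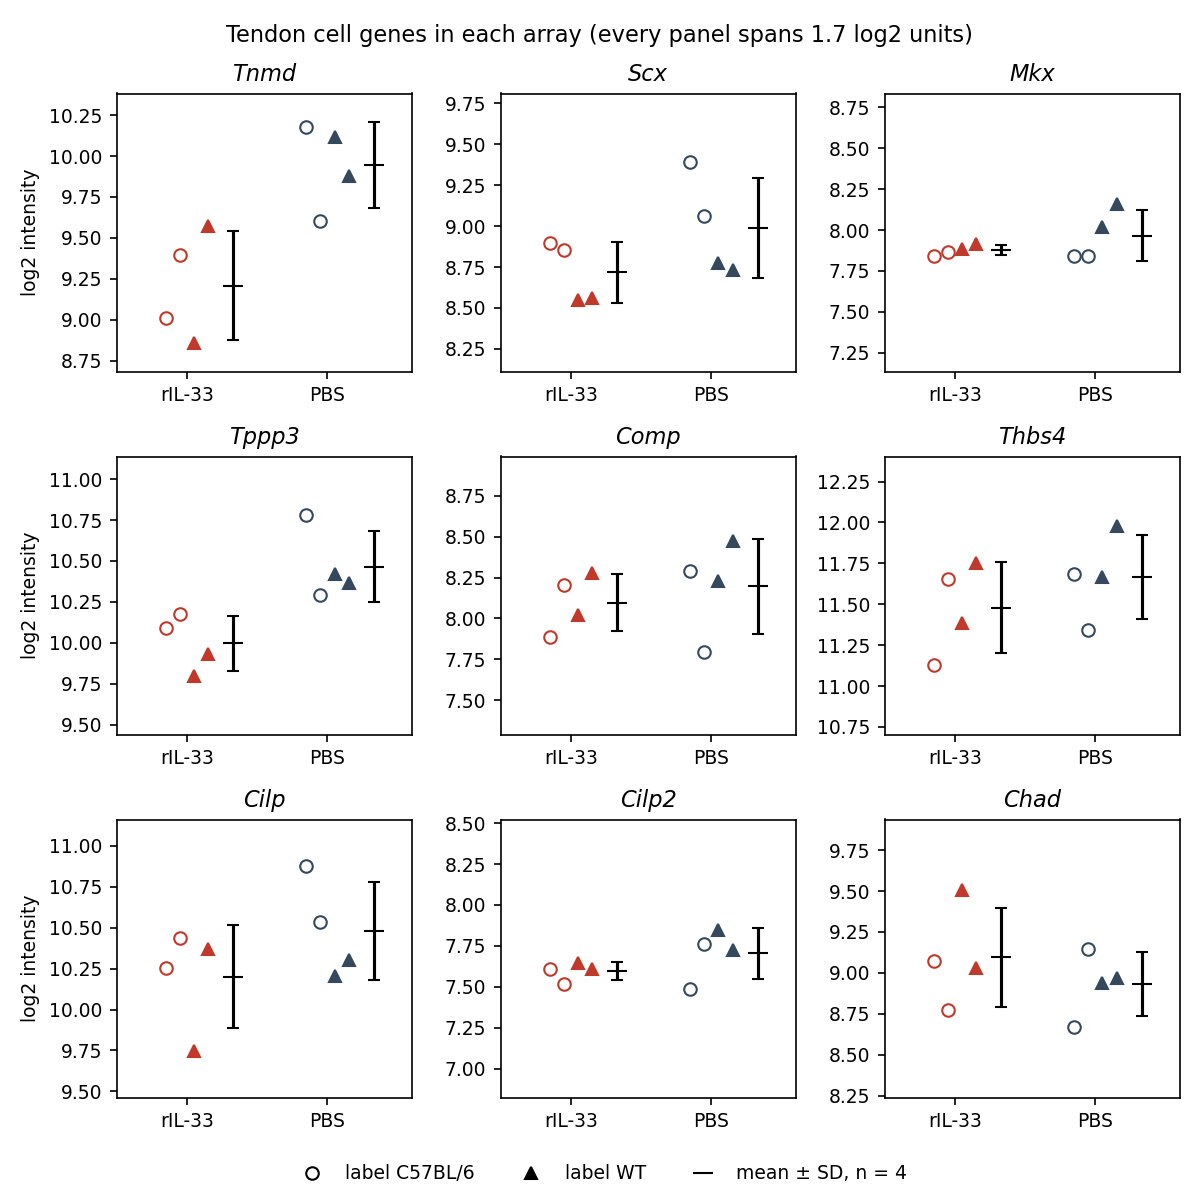
Log2 intensity (y axis) of each tendon cell gene in the 4 rIL-33 arrays and, to their right, the 4 PBS arrays; filled triangles carry the label WT, open circles the label C57BL/6, and the bar is the mean ± SD (n = 4). Every panel spans the same height, and the 4 rIL-33 arrays lie below the 4 PBS arrays in the panels of Tnmd and Tppp3 alone.

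Tnmd encodes tenomodulin, a type II transmembrane glycoprotein of tendons and ligaments. It stood at 9.01, 9.39, 8.86 and 9.57 in rIL-33 replicates 1 to 4, against 10.18, 9.60, 10.12 and 9.88 in PBS replicates 1 to 4. Every rIL-33 array was below every PBS array, but only by 0.03 between the nearest pair, rIL-33 replicate 4 and PBS replicate 2. Tnmd averaged 9.21 ± 0.33 with rIL-33 and 9.94 ± 0.26 with PBS (SD, n = 4 each), a ratio of geometric mean intensities of 0.600. The log2 difference was -0.74 (SE 0.17), and it was -0.78 within the WT-labelled arrays and -0.69 within the C57BL/6-labelled ones.

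Tppp3, a tubulin polymerization-promoting protein, marks cells of the tendon sheath and paratenon. Its values were 10.09, 10.17, 9.79 and 9.93 in the rIL-33 muscles, against 10.78, 10.29, 10.42 and 10.37 in the PBS muscles. The groups did not overlap, with 0.12 between the highest rIL-33 and the lowest PBS array. Tppp3 averaged 9.997 ± 0.17 with rIL-33 and 10.47 ± 0.22 with PBS (SD, n = 4 each). Its log2 difference was -0.47 (SE 0.12), with -0.53 within the WT label and -0.41 within the C57BL/6 label. Leaving out any single array kept the difference between -0.86 and -0.62 for Tnmd and between -0.53 and -0.36 for Tppp3.

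Scx encodes scleraxis, a basic helix-loop-helix factor that binds E-box sequences and drives tendon matrix genes. It stood at 8.90, 8.86, 8.55 and 8.56 with rIL-33, against 9.39, 9.06, 8.78 and 8.73 with PBS. Pooled, the groups overlapped, since the WT-labelled PBS arrays (replicates 3 and 4) lay below the C57BL/6-labelled rIL-33 arrays (replicates 1 and 2). Within each label, both rIL-33 arrays were below both PBS arrays. The same was true of Tnmd and Tppp3, 3 of the 9 genes in all, and of 4.9% of all genes tested. The log2 difference of Scx was -0.27 (SE 0.15), with -0.20 within the WT label and -0.35 within the C57BL/6 label. Without PBS replicate 1, the array with the highest Scx, it was -0.14.

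Mkx, the homeobox gene Mohawk, needed for collagen fibril growth in tendon, varied least of the 9 between arrays. Its values were 7.84, 7.86, 7.89 and 7.91 with rIL-33, against 7.84, 7.84, 8.02 and 8.16 with PBS. The groups overlapped, and both WT-labelled PBS arrays were above all others. The log2 difference was -0.09 (SE 0.08), with -0.19 within the WT label and 0.01 within the C57BL/6 label, and it was -0.02 without PBS replicate 4.

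**Figure D2:**
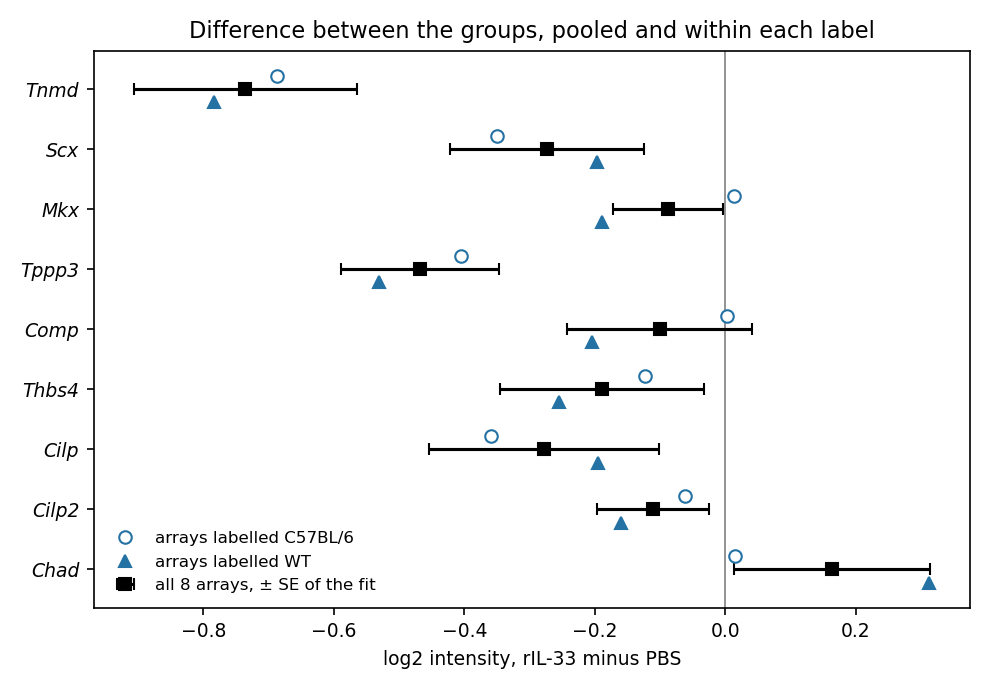
Log2 difference, rIL-33 minus PBS (x axis), for each tendon cell gene (y axis); squares with bars are the difference over all 8 arrays ± SE of the limma fit, triangles and open circles the differences within the WT-labelled and C57BL/6-labelled arrays. Tnmd (-0.74) and Tppp3 (-0.47) lie farthest to the left, Chad (0.16) lies to the right of 0, and the circles of Mkx and Comp lie at 0.01 and 0.00.

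Comp and Thbs4 are pentameric thrombospondins found in tendon, which bind collagen and other matrix proteins outside the cell. Comp, cartilage oligomeric matrix protein, stood at 7.89, 8.20, 8.02 and 8.28 with rIL-33, against 8.29, 7.79, 8.23 and 8.48 with PBS. The lowest and the highest array were both PBS arrays, replicates 2 and 4. Its log2 difference was -0.10 (SE 0.14), with -0.20 within the WT label and 0.00 within the C57BL/6 label. Comp depended on single arrays: the difference was -0.03 without rIL-33 replicate 1, -0.16 without rIL-33 replicate 4, -0.24 without PBS replicate 2 and -0.01 without PBS replicate 4. Its mean difference was smaller than its SE.

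Thbs4, thrombospondin 4, had 11.13, 11.65, 11.39 and 11.75 with rIL-33, against 11.68, 11.35, 11.67 and 11.98 with PBS. The groups overlapped over most of their range. The log2 difference was -0.19 (SE 0.16), with -0.25 within the WT label and -0.12 within the C57BL/6 label. It was -0.07 without rIL-33 replicate 1, -0.30 without PBS replicate 2 and -0.09 without PBS replicate 4.

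Cilp and Cilp2 encode cartilage intermediate layer proteins, secreted matrix proteins, of which CILP is known to bind TGF-beta 1. Cilp stood at 10.25, 10.44, 9.74 and 10.37 with rIL-33, against 10.88, 10.53, 10.20 and 10.30 with PBS. Its lowest array by far was rIL-33 replicate 3 and its highest PBS replicate 1, while the rest overlapped. The log2 difference was -0.28 (SE 0.18), -0.20 within the WT label and -0.36 within the C57BL/6 label, but -0.12 without rIL-33 replicate 3 and -0.14 without PBS replicate 1.

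Cilp2 had 7.61, 7.52, 7.65 and 7.61 with rIL-33, against 7.48, 7.76, 7.85 and 7.73 with PBS. The lowest array was a PBS array, replicate 1, and the other PBS arrays lay above all rIL-33 arrays. Its log2 difference was -0.11 (SE 0.09), with -0.16 within the WT label and -0.06 within the C57BL/6 label. It was -0.18 without PBS replicate 1 and -0.06 without PBS replicate 3.

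Chad encodes chondroadherin, a leucine-rich repeat protein of the matrix that binds cells through integrin. It stood at 9.07, 8.78, 9.50 and 9.03 with rIL-33, against 8.67, 9.15, 8.94 and 8.97 with PBS. Its highest array was rIL-33 replicate 3, the array in which Tnmd, Scx, Tppp3 and Cilp were lowest, and its lowest was PBS replicate 1, the array in which those 4 were highest. The log2 difference was 0.16 (SE 0.15), with 0.31 within the WT label and 0.01 within the C57BL/6 label. It was 0.03 without rIL-33 replicate 3, 0.27 without rIL-33 replicate 2 and 0.08 without PBS replicate 1.

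The promoters of Tnmd, Cilp and Chad are shown because these genes stand for the largest lower mean, for the gene with the highest r with Scx over the 8 arrays, and for the gene that ran the other way. The r between Scx and Cilp was 0.83, but 0.44 without the 2 arrays farthest from the median of Scx. RefSeq promoter sequences (build GRCm38.p6) were at hand for 5 of the 9 genes, Tnmd, Thbs4, Cilp, Cilp2 and Chad. Each line gives the 250 bases before the annotated start of the gene, 5′ to 3′ on the gene's own strand, with every E-box core in capitals. They lie at chrX:133850758-133851007 (Tnmd, plus strand), chr9:65264930-65265179 (Cilp, plus strand) and chr11:94564797-94565046 (Chad, plus strand).
Tnmd: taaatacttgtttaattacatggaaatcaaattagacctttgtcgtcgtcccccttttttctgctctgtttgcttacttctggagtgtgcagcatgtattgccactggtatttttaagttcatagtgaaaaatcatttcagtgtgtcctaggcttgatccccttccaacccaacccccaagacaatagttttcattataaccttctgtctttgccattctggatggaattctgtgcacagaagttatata
Cilp: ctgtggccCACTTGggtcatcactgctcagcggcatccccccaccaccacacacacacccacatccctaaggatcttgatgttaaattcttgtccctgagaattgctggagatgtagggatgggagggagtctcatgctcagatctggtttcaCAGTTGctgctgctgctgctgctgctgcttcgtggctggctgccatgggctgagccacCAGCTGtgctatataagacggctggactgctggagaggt
Chad: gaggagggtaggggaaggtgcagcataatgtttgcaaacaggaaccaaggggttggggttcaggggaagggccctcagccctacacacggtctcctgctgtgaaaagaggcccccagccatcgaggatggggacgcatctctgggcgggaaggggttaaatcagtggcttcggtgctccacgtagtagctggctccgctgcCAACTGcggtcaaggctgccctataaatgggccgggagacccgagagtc

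The E-box core searched was CANNTG, which reads the same on both strands. It was found in 4 of the 5 promoters, all but that of Tnmd, and in 66.2% of the 32851 RefSeq promoter windows of the same length. Cilp held 3 matches, which begin 242, 97 and 39 bases before the start. The share of all windows that hold 3 matches was not counted. Chad held 1, beginning 49 bases before it, Thbs4 1 at 115 bases and Cilp2 1 at 156 bases. The form CAGATG, itself a case of CANNTG and searched on both strands, was in 0 of the 5 and in 14.4% of all windows. The motif GCGNGGGCG of the early growth response factors, searched on both strands, was in the promoter of Cilp2 alone among the 5 and in 4.7% of all windows. TATAAA, likewise on both strands, was in that of Chad alone among the 5 and in 12.4% of all windows. A match is a description of the letters and not a measured site.

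The 9 genes did not vary as 1 block across the arrays. Of their 36 pairs, 21 had a positive Pearson correlation over the 8 arrays, with a median r of 0.19. Comp and Thbs4 ran closest together (r = 0.94, Spearman rho = 0.95), and with the mean of each treatment group taken out first r was 0.94. Without the 2 arrays farthest from the median of Comp, r was 0.99 over the 6 left.

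Scx, Tppp3 and Cilp were each highest in PBS replicate 1 and lowest in rIL-33 replicate 3. The correlation was 0.83 between Scx and Cilp (rho 0.71), 0.82 between Scx and Tppp3 (rho 0.62) and 0.77 between Tppp3 and Cilp (rho 0.45). These values rested on the extreme arrays: without the 2 arrays farthest from the median of Scx, r was 0.44 with Cilp and 0.37 with Tppp3, and without the 2 farthest from that of Tppp3, r with Cilp was -0.19. Tnmd and Tppp3 had r = 0.85 (rho 0.93), or 0.56 with the group means taken out and 0.68 without the 2 arrays farthest from the median of Tnmd. Between the pair of lineage factors, Scx and Mkx, r was -0.40 (rho -0.76).

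Chad had a negative r with 7 of the 8 other genes, from -0.83 with Cilp to 0.37 with Cilp2. Without the 2 arrays farthest from the median of the other gene, 4 of the 8 were negative. The value then was 0.14 with Cilp, 0.29 with Scx (-0.61 over all arrays), -0.11 with Tppp3 (-0.76) and -0.15 with Tnmd (-0.71), so that these 4 rest on such arrays. It was -0.73 with Thbs4 (-0.48) and -0.58 with Comp (-0.51). All these correlations come from the same 8 arrays, which share treatment, label and normalization, and no p is given for them.

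**Figure D3:**
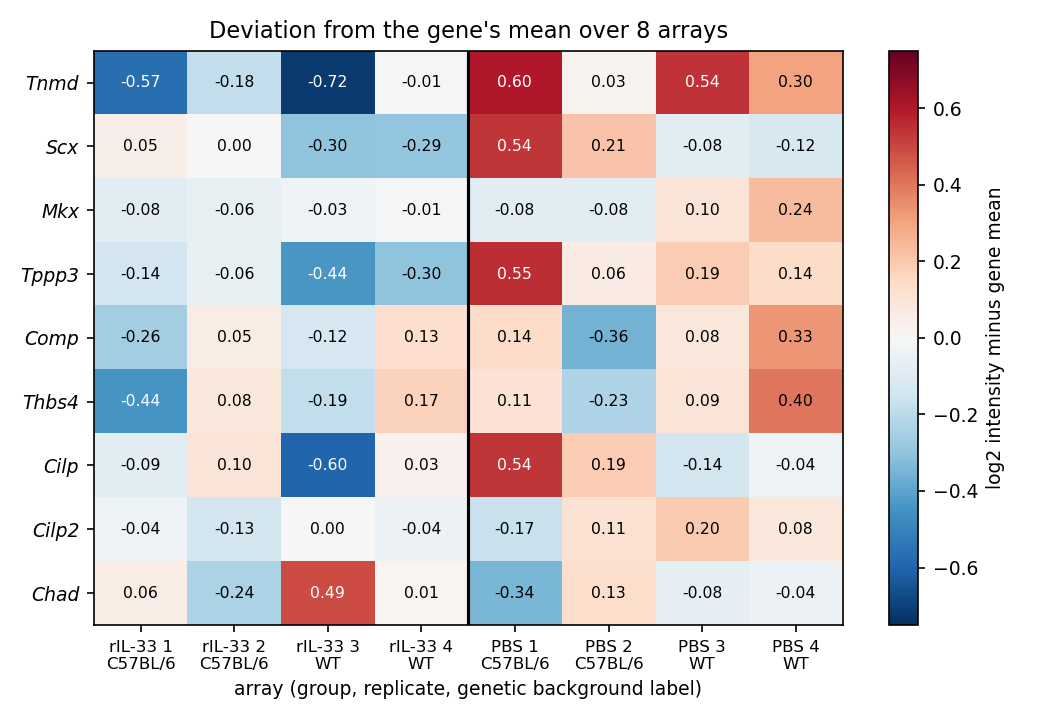
Each cell is the log2 intensity of a tendon cell gene (rows) in 1 array (columns, rIL-33 left of PBS, with the genetic background label) minus that gene's mean over the 8 arrays; red is above and blue below the mean. PBS replicate 1 holds the highest values of Tnmd (0.60), Scx (0.54), Tppp3 (0.55) and Cilp (0.54), and rIL-33 replicate 3 the highest of Chad (0.49).

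The 9 genes were also compared by genetic background label. Scx lay between 8.55 and 8.78 in the 4 WT-labelled arrays and between 8.86 and 9.39 in the 4 C57BL/6-labelled arrays, without overlap. Mkx lay between 7.89 and 8.16 in WT-labelled arrays and between 7.84 and 7.86 in C57BL/6-labelled ones, again without overlap and with the opposite sign. The label groups did not overlap in these 2 of the 9 genes and in 20.2% of all genes tested. The log2 difference, WT minus C57BL/6, was -0.40 for Scx, -0.37 for Cilp, -0.21 for Tppp3 and 0.15 for Mkx. It was 0.24 for Thbs4, 0.21 for Comp, 0.19 for Chad, 0.11 for Cilp2 and 0.06 for Tnmd, whose label groups overlapped. Thus 3 of the 9 genes, Scx, Cilp and Tppp3, had a lower mean in the WT-labelled arrays, as did 54.1% of all genes tested. The values of every array were known when the genes were chosen, so these too are given with no test.

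Other tendon and junction genes, relatives of the 9 and markers of other cells were taken from lists written down for this report. None of these lists holds any of the 9, and many of their genes are not tendon genes. Earlier results of these data were known when the lists were written, so their counts are descriptions and not an independent check. Of 108 genes tested in the 9 lists, 0 passed the threshold of 0.05 between rIL-33 and PBS (limma adjusted p between 0.489 and 0.996). Of all 14814 genes 0.00675%, or 1, passed it, and 1427 had an unadjusted p under 0.05. The list of tendon matrix genes had the lowest median of the lists. Among its 26 genes, 25 had a lower mean with rIL-33, the median log2 difference was -0.36, and the groups did not overlap in 9, all of them lower with rIL-33, where 2.13% of all genes tested did so. Lumican (Lum), a proteoglycan that regulates fibril thickness, averaged 10.12 ± 0.31 with rIL-33 and 10.88 ± 0.21 with PBS (SD, n = 4 each). Its log2 difference was -0.76 (SE 0.15, limma adjusted p = 0.489). Col12a1, a fibril-associated collagen of tendon, averaged 9.71 ± 0.58 with rIL-33 and 10.44 ± 0.39 with PBS, a difference of -0.73 (SE 0.27, limma adjusted p = 0.489). The intensities of the 26 genes summed to between 40416 and 56395 in rIL-33 arrays and between 57476 and 69023 in PBS arrays, without overlap. Bright genes weigh most in such a sum, and no share over all genes was computed for sums.

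Upstream regulators of the tendon lineage, among them TGF-beta ligands and receptors, growth differentiation factors and the early growth response factors, had a median log2 difference of -0.07. Of the 15 tested, 9 had a lower and 6 a higher mean with rIL-33, and the groups overlapped in all 15. Egr1, a zinc finger factor that responds to load, averaged 8.98 ± 0.38 with rIL-33 and 9.42 ± 0.35 with PBS, a difference of -0.44 (SE 0.21, limma adjusted p = 0.525). Eya1, a transcriptional co-activator of homeobox proteins, averaged 10.01 ± 0.12 with rIL-33 and 9.70 ± 0.19 with PBS, a difference of 0.32 (SE 0.10, limma adjusted p = 0.489).

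Genes of the myotendinous junction, where fibres anchor in tendon, were divided. Of 14, 7 had a lower and 7 a higher mean with rIL-33, with a median log2 difference of 0.01. Ankrd1, a stretch-responsive ankyrin repeat gene, averaged 10.87 ± 0.30 with rIL-33 and 11.25 ± 0.72 with PBS, a difference of -0.38 (SE 0.30, limma adjusted p = 0.715). Dystrophin (Dmd) averaged 10.82 ± 0.13 with rIL-33 and 10.47 ± 0.12 with PBS, a difference of 0.34 (SE 0.09, limma adjusted p = 0.489). The groups did not overlap in 2 of the 14, Dmd and Sorbs2 (named after its value was seen), both higher with rIL-33. Such genes made up 2.44% of all genes tested.

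Close relatives of the 9 were led by the other thrombospondins, the matrix proteins that bind cells and growth factors. Thbs1 averaged 10.36 ± 0.46 with rIL-33 and 10.94 ± 0.40 with PBS (difference -0.58, SE 0.24, limma adjusted p = 0.498). Thbs2 averaged 10.57 ± 0.34 with rIL-33 and 11.08 ± 0.30 with PBS (difference -0.51, SE 0.18, limma adjusted p = 0.489). The list also holds Matn2, a matrilin gene that is not a paralog of any of the 9. Of the 7 genes tested in it, 5 had a lower mean with rIL-33, Matn2 among them. The median was -0.28, which is the value of Matn2 itself. In 1, Thbs3, the groups did not overlap and it was lower with rIL-33, as were 2.13% of all genes tested. Cnmd, the gene of chondromodulin and the relative of Tnmd in cartilage, was dim, as were Tppp2 and Epyc.

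**Figure D4:**
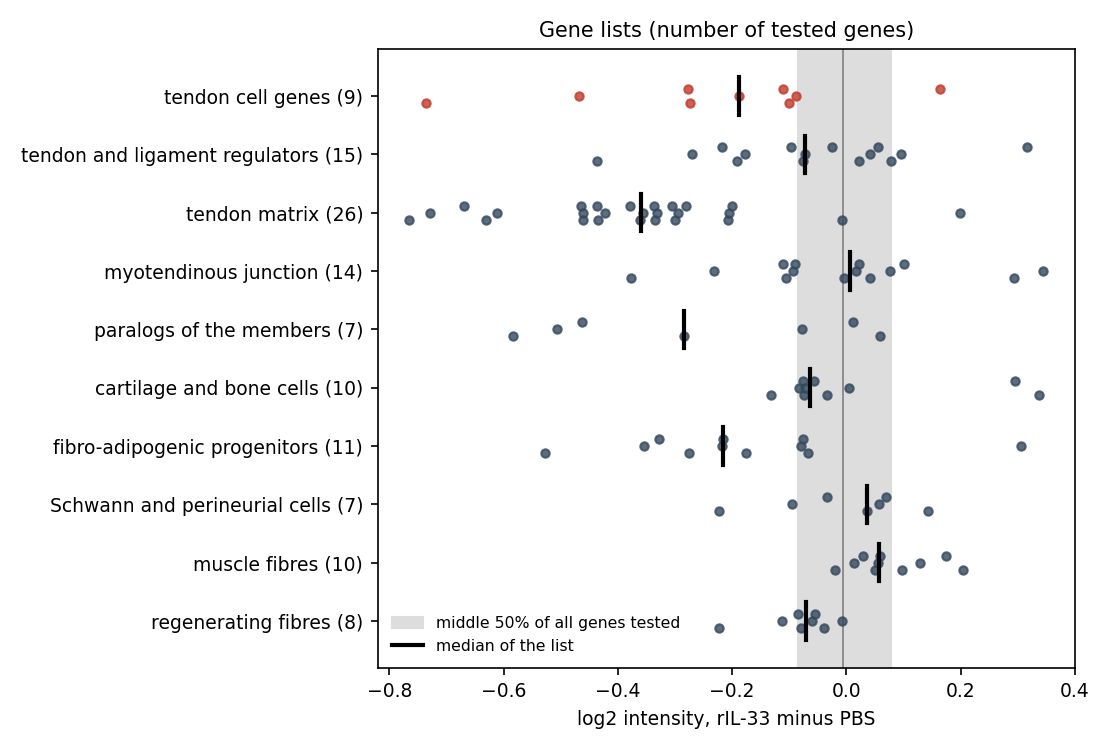
Log2 difference, rIL-33 minus PBS (x axis), of every tested gene (points) in the list of 9 tendon cell genes (red) and in 9 other lists (blue-grey), with the number of tested genes in brackets; black bars are list medians and the grey band holds the middle 50% of all genes tested. The median is lowest in the list of tendon matrix genes (-0.36), then in the list of paralogs and Matn2 (-0.28), fibro-adipogenic progenitor genes (-0.22) and the tendon cell genes (-0.19).

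Markers of other cells that the muscle holds were read beside the tendon genes. Fibro-adipogenic progenitor genes, of the mesenchymal cells between fibres, had a lower mean with rIL-33 in 10 of 11 and a median log2 difference of -0.22. Gene by gene, the groups did not overlap in 2 of the 11, lower with rIL-33 in each, where 2.13% of all genes tested did so. The summed intensity of the list was between 9917 and 11302 in rIL-33 arrays and between 11712 and 13262 in PBS arrays, without overlap. Bright genes weigh most in such a sum, and no share over all genes was computed for sums. Among them Mfap5 averaged 10.89 ± 0.32 with rIL-33 and 11.41 ± 0.13 with PBS (difference -0.53, SE 0.14), and Pdgfra, the receptor that defines these cells, 9.78 ± 0.15 with rIL-33 and 10.13 ± 0.17 with PBS (difference -0.35, SE 0.11), both with a limma adjusted p of 0.489. The part of these cells, which share matrix genes with tenocytes, in the values of the 9 genes was not tested.

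Cartilage and bone markers were divided. Of the 10 tested, 7 had a lower and 3 a higher mean with rIL-33 (median -0.06), and the summed intensity of the 15 with a value was between 3854 and 4416 in rIL-33 arrays and between 3556 and 4061 in PBS arrays. No gene had an intensity of 0, the smallest intensity on any array being 6.9 on the linear scale. The cartilage genes Acan, Matn1, Matn3 and Hapln1 and the bone gene Ibsp were dim. Other cartilage genes were above the cut-off, among them Col2a1 (mean over the 8 arrays 8.33), Col9a1 (7.60), Col9a2 (8.32) and Sox9 (9.08). Sox6, a factor of chondrocytes that fibres also express, averaged 10.44 ± 0.18 with rIL-33 and 10.10 ± 0.13 with PBS (difference 0.34, SE 0.10), and Alpl, alkaline phosphatase, 8.91 ± 0.20 with rIL-33 and 8.62 ± 0.12 with PBS (difference 0.30, SE 0.11), both with a limma adjusted p of 0.489.

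Muscle fibre genes had a higher mean with rIL-33 in 9 of 10 (median 0.06), with overlap of the groups in all 10, and summed to between 109786 and 119498 in rIL-33 arrays and between 103691 and 115657 in PBS arrays. Mylpf, a fast myosin light chain gene, differed by 0.20 (SE 0.18, limma adjusted p = 0.745) and the fast myosin gene Myh2 by 0.17 (SE 0.15, limma adjusted p = 0.737). All 8 genes of regenerating fibres had a lower mean with rIL-33 (median -0.07), and their sums overlapped, at 22531 to 31313 in rIL-33 arrays and 26498 to 30409 in PBS arrays. Myog and Myod1, factors of muscle differentiation, differed by -0.22 (SE 0.19, limma adjusted p = 0.738) and -0.11 (SE 0.13, limma adjusted p = 0.822). The 7 Schwann and perineurial genes with a value had a median of 0.04, 3 being lower and 4 higher. Their sums overlapped as well, at 4210 to 4880 with rIL-33 and 4559 to 5439 with PBS. Of these, the myelin gene Pmp22 differed by -0.22 (SE 0.10, limma adjusted p = 0.517) and Mbp by 0.14 (SE 0.07, limma adjusted p = 0.554).

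Between the genetic background labels, 1392 of 14814 genes passed the threshold in limma with treatment in the fit, or 9.4%. Of the 108 list genes 9 passed, 8.33%, a share near that of all genes. The 3 higher in WT-labelled arrays were the cartilage collagens Col2a1 (0.26, limma adjusted p = 0.0482), Col9a1 (0.32, limma adjusted p = 0.0449) and Col9a2 (0.29, limma adjusted p = 0.0372). The 6 lower ones were Tgfbr1, Smad3, Ecm2, Bcam, Smoc2 and Mylpf. All 9 are named after their values were seen. The adjusted p of these 3 collagens lay just under the threshold of 0.05. Leaving out any 1 of the 8 arrays moved the count of genes past the threshold by over 1.5 times, to between 10 and 2510, so these calls depend on single arrays. They also depend on normalization, since the count was 375 after quantile and 419 after cyclic loess normalization. No difference of cartilage genes between the labels is read from them.

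The genes whose pattern over the 8 arrays was most like that of Tnmd were found by Pearson correlation over all tested genes. They were Slc25a1, the mitochondrial citrate carrier (r = 0.99), P3h1, a prolyl 3-hydroxylase of collagen (0.98), Pamr1 (0.98), Gjc1, a connexin of gap junctions (0.98), and Ebf1, a transcription factor of B cells and stromal cells (0.98). For the mean of the 9 genes they were P3h1 (0.99), Thbs3 (0.99), Slc25a1 (0.99), Rfc5, a subunit of the replication factor C clamp loader (0.98), and Tax1bp3 (0.98). They are the extremes of a search over 14814 genes on 8 arrays, and nothing is said here about shared function. Tnmd and the mean of the 9 genes were lower with rIL-33, so genes picked for following them were bound to be lower as well. Their log2 differences are therefore a description and not a separate result. They ran from -0.25 (SE 0.10) for Gjc1 to -0.57 (SE 0.14) for Pamr1, each with a limma adjusted p of 0.489.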

How the data were processed

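The deposited file holds an intensity for each of 24922 probe sets on Affymetrix mouse gene arrays; per the submitters' processing notes the authors used RMA and Affymetrix Power Tools, whose versions are not stated there. They are on a linear scale, so log2 was taken first. In the platform annotation 21425 probe sets had 1 gene symbol, 1399 several and 2098 none listed; the last 2 kinds were left out, and each gene was read from its probe set of highest mean. Signal that does not come from a gene compresses the differences of dim probe sets.

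The main comparison used limma 3.58.1 (lmFit, then eBayes; R 4.3.3), with the 8 arrays in 1 fit without a block and Benjamini-Hochberg adjustment across the 14814 genes tested. SE is limma's moderated standard error. The label contrast had treatment as a term. Arrays have no read depth; their number limits the precision. The members, lists and tests were chosen with earlier results of these data known. The 9 lists hold 123 genes, 116 of them with a value. Genes named were all members, of each list the genes past the threshold or else the 2 of largest difference, and the 5 genes most correlated with Tnmd and with the mean of the members. Alternatives were other normalizations, dim filters, eBayes settings, blocks, single labels, means over probe sets, single arrays left out and a threshold of 0.1. Simulated data for rIL-33 against PBS held 14814 genes with independent noise. The fit recovered 56% of 50 genes changed by 0.5 and 96% of 50 changed by 1 on the log2 scale. The simulation also held 50 genes changed by 2 and 50 changed by 3, and such large changes ease the Benjamini-Hochberg cut-off for smaller ones. In the measured data 1 gene passed, and Lum, at -0.76, had a limma adjusted p of 0.489. The recovered shares therefore apply to the simulated mix alone and not to the measured contrast. Same-numbered arrays of the groups had deviations from their group means that correlated at 0.44, -0.19, 0.43 and 0.54. For replicates 3 and 4, the same-numbered array was the closest one of the other group. Same-numbered arrays also share a genetic background label, so these values cannot show whether the numbers are pairs. They were not taken as pairs. Plots come from matplotlib 3.10.9 (Python 3.11.15).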

Additional observations from a re-analysis of the deposited data

Results flagged for a closer look

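Mkx differed by -0.19 (rIL-33 minus PBS, log2) within the WT-labelled arrays, both rIL-33 arrays lying below both PBS arrays. Within the C57BL/6-labelled ones it differed by 0.01, and both rIL-33 arrays lay above, but barely. The nearest arrays there were rIL-33 replicate 1 at 7.841 and PBS replicate 1 at 7.840. This difference between the labels was not tested, since the gene was chosen with these values known.

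Among 35 named genes, PBS replicate 2 stood apart from its group in 2, out of 70 groups of 4 arrays looked at, where chance flags about 1 in 20. Thbs2 was at 10.64 there and between 11.17 and 11.27 (log2 intensity) in the other PBS arrays. Ebf1 was at 10.25 there and between 10.54 and 10.56 in the others.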

How the results depend on the processing

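The sign of the difference between rIL-33 and PBS was kept by all 9 tendon cell genes under both other normalizations (quantile, cyclic loess) and with each array left out. Dropping the dim filter, eBayes with trend and robust, both blocks and averaging the probe sets of a gene could not change these differences. The design is balanced, the filter and eBayes do not alter the means, and each of the 9 genes had 1 probe set. With the dim filter at the 50th percentile Cilp2 was left out, and the other 8 kept their values. Within the C57BL/6-labelled arrays alone Mkx (0.01) and Comp (0.00) had the other sign. Leaving out 1 array gave -0.86 to -0.62 for Tnmd, -0.36 to -0.14 for Scx, -0.13 to -0.02 for Mkx, -0.53 to -0.36 for Tppp3, -0.24 to -0.01 for Comp, -0.30 to -0.07 for Thbs4, -0.37 to -0.12 for Cilp, -0.18 to -0.06 for Cilp2 and 0.03 to 0.27 for Chad.

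The count of genes past the threshold between rIL-33 and PBS, 1, was 0 with the replicate number as a block (the numbers are not shown to pair the arrays), 4 in the WT-labelled and 2 in the C57BL/6-labelled arrays alone, and 1 to 2 with 1 array left out. Between the labels, the count of 1392 was 375 after quantile and 419 after cyclic loess normalization, 892 with the dim filter at the 50th percentile, 796 without the treatment term, 3364 at a threshold of 0.1, and 10 to 2510 with 1 array left out. The replicate block cannot be fitted with the label, since each number carries 1 label. The cause of these changes was not tested.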
